A study of Mus musculus with 48 samples.

Results

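The response of mouse embryonic stem cells to the genotype labelled Upf1 knockout was compared between 2 experiments of the same layout. In each experiment the RNA of whole lysates (inputs) was sequenced from HA-Tnrc6a cells and from cells labelled Upf1 knockout. The comparison used 12 of the 48 libraries of the series, 4 groups of 3. The response in an experiment is the log2 fold change of the knockout-labelled inputs over the HA-Tnrc6a inputs, and the difference between experiments is the response in experiment 4 minus that in experiment 3. A gene whose response is "higher in experiment 4" therefore has a positive difference, whichever group moved. Of the 20171 genes in the deposited table, 19444 passed the filter on low counts and were tested.

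All groups were 129S6/SvEvTac embryonic stem cells that carry the GFP_5xT71BS reporter and a stable FLAG-Cas9 transgene with blasticidin resistance. They were grown on gelatin in serum with leukaemia inhibitory factor, a cytokine that keeps these cells undifferentiated. HA-Tnrc6a cells carry an HA-AVI tag on Tnrc6a, a scaffold protein that links microRNA-guided Argonaute proteins to mRNA decay. The knockout-labelled cells have that tag and the genotype Upf1-/-. Untagged cells of the parental line and tagged Ago2-/- cells were sequenced in both experiments as well, and they are used here only as further references. Dishes were grown in triplicate per the labels, so the spread within a group is that between dishes. The number of clones behind each genotype was not given in the sources used here. The assignment of the count columns to the experiments was inferred from their numbering.

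Upf1 is the RNA helicase at the centre of nonsense-mediated decay, the pathway that degrades mRNAs whose translation ends too early or ahead of an exon junction. Loss of the pathway is known to raise its natural targets, among them the host transcripts of small nucleolar RNAs and mRNAs with upstream reading frames such as Atf4, and to raise mRNAs of several decay factors that regulate themselves through it. Embryonic stem cells in serum are a mixed population in which a few cells drift towards primitive endoderm, and their hypoxia, p53 and growth factor programmes change with culture conditions.

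Total counts lay between 15829009 and 19412035 per library in experiment 3 and between 26647238 and 37179105 in experiment 4. The first 2 principal components of log2 CPM (counts scaled to a common library size) took 41.6% and 25.9% of the variance, and each of the 4 groups formed a cluster of its own on them. In experiment 3, HA-Tnrc6a input replicate 3 stood apart from its group. It gave 3.68% of its counts to ribosomal RNA genes, against 0.108% to 0.533% in the other 11 libraries, and its counts differed from those of replicates 1 and 2 by a chi-square of 42.2 and 35.5 per degree of freedom, against 2.92 between those 2. For some gene lists the counts without it are also given. Markers of embryonic stem cells (10 genes, among them Pou5f1 and Sox2) summed to between 7490 and 8600 CPM in the 12 libraries, and none of the 10 was under 1 CPM.

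Upf1 mRNA, the transcript of the targeted gene, was not lower in the knockout-labelled cells of either experiment. In experiment 3 it stood at 82.9, 82.3 and 92 CPM in HA-Tnrc6a inputs and at 134, 135 and 137 CPM in knockout-labelled inputs. In experiment 4 it stood at 110, 107 and 109 CPM and at 151, 155 and 159 CPM. The groups did not overlap in either experiment, and the log2 fold changes were 0.65 ± 0.04 and 0.51 ± 0.04 (SE, n = 3 per group). Their difference of -0.14 ± 0.06 did not pass the threshold (edgeR quasi-likelihood adjusted p = 0.0985). The gene (GRCm38 chromosome 8, 70331493 to 70353423) overlaps Cers1 and Gdf1. The position of the deletion was not given in the sources used here, so this level does not check the labels. Tnrc6a responded by 0.01 and -0.06, and Ago2, the Argonaute protein that cleaves guide-paired targets, by 0.42 and 0.52.

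The response differed between experiments in 2253 of 19444 genes, 11.6% (edgeR quasi-likelihood test of the interaction, Benjamini-Hochberg adjusted p under 0.05). It was higher in experiment 4 in 1118 genes, 5.75%, and lower in 1135 genes, 5.84%. With library totals in place of trimmed-mean scaling the share of higher responses among the differing genes was 33.6% against 49.6%. The size was at least 2-fold in 287 genes, 186 of them higher and 101 lower. The knockout-labelled cells differed from HA-Tnrc6a cells in 8911 genes in experiment 3, 45.8% of those tested (23.5% higher and 22.3% lower), and in 9687 genes in experiment 4, 49.8% (25.8% higher and 24% lower). With library totals 62.5% of the genes changed in experiment 3 were higher, against 51.3%. Both experiments changed 6620 genes, 6415 of them in the same direction (33.0% of the genes tested) and 205 in opposite directions. The 6415 are 72.0% of the genes changed in experiment 3 and 66.2% of those changed in experiment 4. Across genes the 2 responses had a Pearson correlation of 0.634, and of 0.798 over the 11119 genes with a mean log2 CPM of at least 3. These 2 values describe genes of the same 12 libraries, which are not independent replicates.

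**Figure D1:**
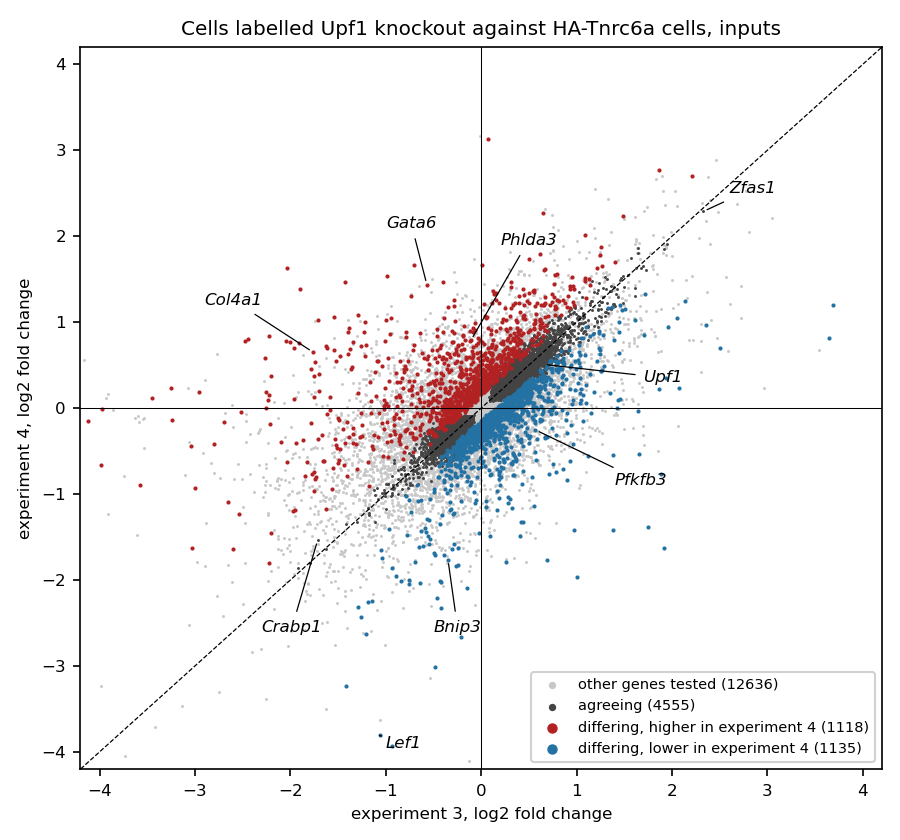
Each point is 1 of the 19444 genes tested, by its log2 fold change of knockout-labelled over HA-Tnrc6a inputs in experiment 3 (x axis) and experiment 4 (y axis), and the dashed line marks equal responses. The 1118 genes in red and 1135 in blue differ between experiments, the 4555 in dark grey agree within 1.5-fold, and 10 genes lie outside the axes.

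Genes that turned direction were a minority of those whose response differed. Of the 2253, 446 moved in the same direction in both experiments and further in experiment 4, and 364 moved further in experiment 3. A further 679 passed the threshold in experiment 4 but not in experiment 3, 542 passed it in experiment 3 but not in experiment 4, and 17 passed it in neither. In 113 genes the response was lower in experiment 3 and higher in experiment 4, and in 92 genes it was the reverse. All 205 of these opposite genes were among the differing genes.

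Genes of the endoderm lineages were among those with the largest positive differences. Of 20 markers of extraembryonic and definitive endoderm, 17 were tested, and the response of 13 was higher in experiment 4 and of none lower, against 5.75% and 5.84% of all genes. Their median response was -1.07 in experiment 3 and 0.28 in experiment 4, and the median difference was 1.9, against 0.01 over all genes. In experiment 3, 15 of the 17 were lower in knockout-labelled cells and none higher, whereas in experiment 4, 9 were higher and 3 lower. In bulk lysates fewer cells of a type and less RNA per cell cannot be told apart.

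Col4a1 and Col4a2 encode the paired chains of type IV collagen, the network of basement membranes, and are made in quantity by parietal endoderm. In HA-Tnrc6a inputs of experiment 3 Col4a1 stood at 114, 113 and 111 CPM, and in knockout-labelled inputs at 33.9, 31.7 and 34.1 CPM. In experiment 4 the values were 94.7, 101 and 87.9 CPM in HA-Tnrc6a inputs and 153, 155 and 140 CPM in knockout-labelled inputs. Knockout-labelled cells thus lay below the tagged parent in experiment 3 and above it in experiment 4, with no overlap in either. The responses of Col4a1 were -1.76 ± 0.05 and 0.65 ± 0.04, with a difference of 2.42 ± 0.07 (edgeR quasi-likelihood adjusted p = 1.28e-30). Col4a2 had responses of -1.96 ± 0.07 and 0.69 ± 0.05 and a difference of 2.65 ± 0.09 (adjusted p = 3.74e-28, same edgeR quasi-likelihood test). The 2 genes lie head to head on chromosome 8 (GRCm38), Col4a1 from 11198423 to 11312889 and Col4a2 from 11312805 to 11449287. Their annotated 5′ ends overlap and the strand setting of the counting was not given in the sources used here, so reads at that overlap cannot be told apart.

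Laminin genes behaved alike. Lama1, the alpha chain of a laminin of early basement membranes, stood at 97.5, 100 and 92.8 CPM in HA-Tnrc6a inputs and at 32.4, 28.3 and 29.0 CPM in knockout-labelled inputs of experiment 3. In experiment 4 it stood at 83.7, 70.5 and 70.3 CPM and at 89.3, 81.9 and 87.5 CPM, where the 2 groups overlapped. Its difference was 1.9 ± 0.09, that of Lamb1, the beta chain, 1.02, and that of the matrix glycoprotein Sparc 0.84 (edgeR quasi-likelihood adjusted p = 8.99e-16, 1.7e-15 and 1.03e-16).

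The transcription factors that specify primitive endoderm moved in the same way at lower levels. Gata6, which starts the programme, stood at 3.37, 5.00 and 4.92 CPM in HA-Tnrc6a inputs and 3.32, 2.38 and 3.29 CPM in knockout-labelled inputs of experiment 3. In experiment 4 it rose from 8.34, 6.65 and 7.05 CPM to 20.8, 20.7 and 18.5 CPM. The groups did not overlap in either experiment, though only narrowly in experiment 3, and the difference was 2.01 ± 0.21 (edgeR quasi-likelihood adjusted p = 2.75e-10). Gata4, Sox17 and Sox7, which act after Gata6, had responses of -0.70, -1.78 and -0.95 in experiment 3 and of 0.74, 0.45 and 1.05 in experiment 4. Pdgfra, a growth factor receptor on primitive endoderm, went from -1.39 to 0.94. Dab2 and Cubn, an endocytic adaptor and receptor of the visceral endoderm, were lower in both experiments, at -2.10 and -3.04 in experiment 3 and at -0.40 and -0.45 in experiment 4. The 4 endoderm markers that did not pass the interaction threshold were Foxa1, Amn, Cxcr4 and Hnf4a, with mean levels of 1.72 log2 CPM or less. Foxa1 was under 1 CPM in each of the 4 groups. Foxa2, among the 13 that passed, was under 1 CPM in all of these groups but the HA-Tnrc6a inputs of experiment 3.

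The endoderm markers summed to 584 to 632 CPM in HA-Tnrc6a inputs and 277 to 305 CPM in knockout-labelled inputs of experiment 3. In experiment 4 the sums were 540 to 571 CPM and 694 to 710 CPM. Untagged inputs had 278 to 298 CPM in experiment 3 and 556 to 582 CPM in experiment 4, and Ago2-/- inputs 295 to 305 and 406 to 420 CPM. In experiment 3 the HA-Tnrc6a inputs were thus the highest of the 4 genotypes and the other 3 ranges overlapped, and in experiment 4 the knockout-labelled inputs were the highest. With untagged cells as the reference in place of HA-Tnrc6a cells, 6 endoderm markers had a response higher in experiment 4 and 1 lower (6.01% of all genes differed in that fit). The median difference of these markers was then 0.23 in place of 1.9. Dab2 then had a difference of -0.74 in place of 1.7, and Sparc, Srgn and Cubn, at -0.02, -0.29 and -0.50, did not pass the threshold. Gata6, Col4a1, Col4a2 and Lama1 still passed with that reference, at 1.24, 0.34, 0.34 and 0.75, and Gata4, at 0.62, did not. Of the 8 trophoblast markers tested, 2 were higher and 1 lower in experiment 4, and of the 5 fibroblast markers tested, 2 were higher.

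**Figure D2:**
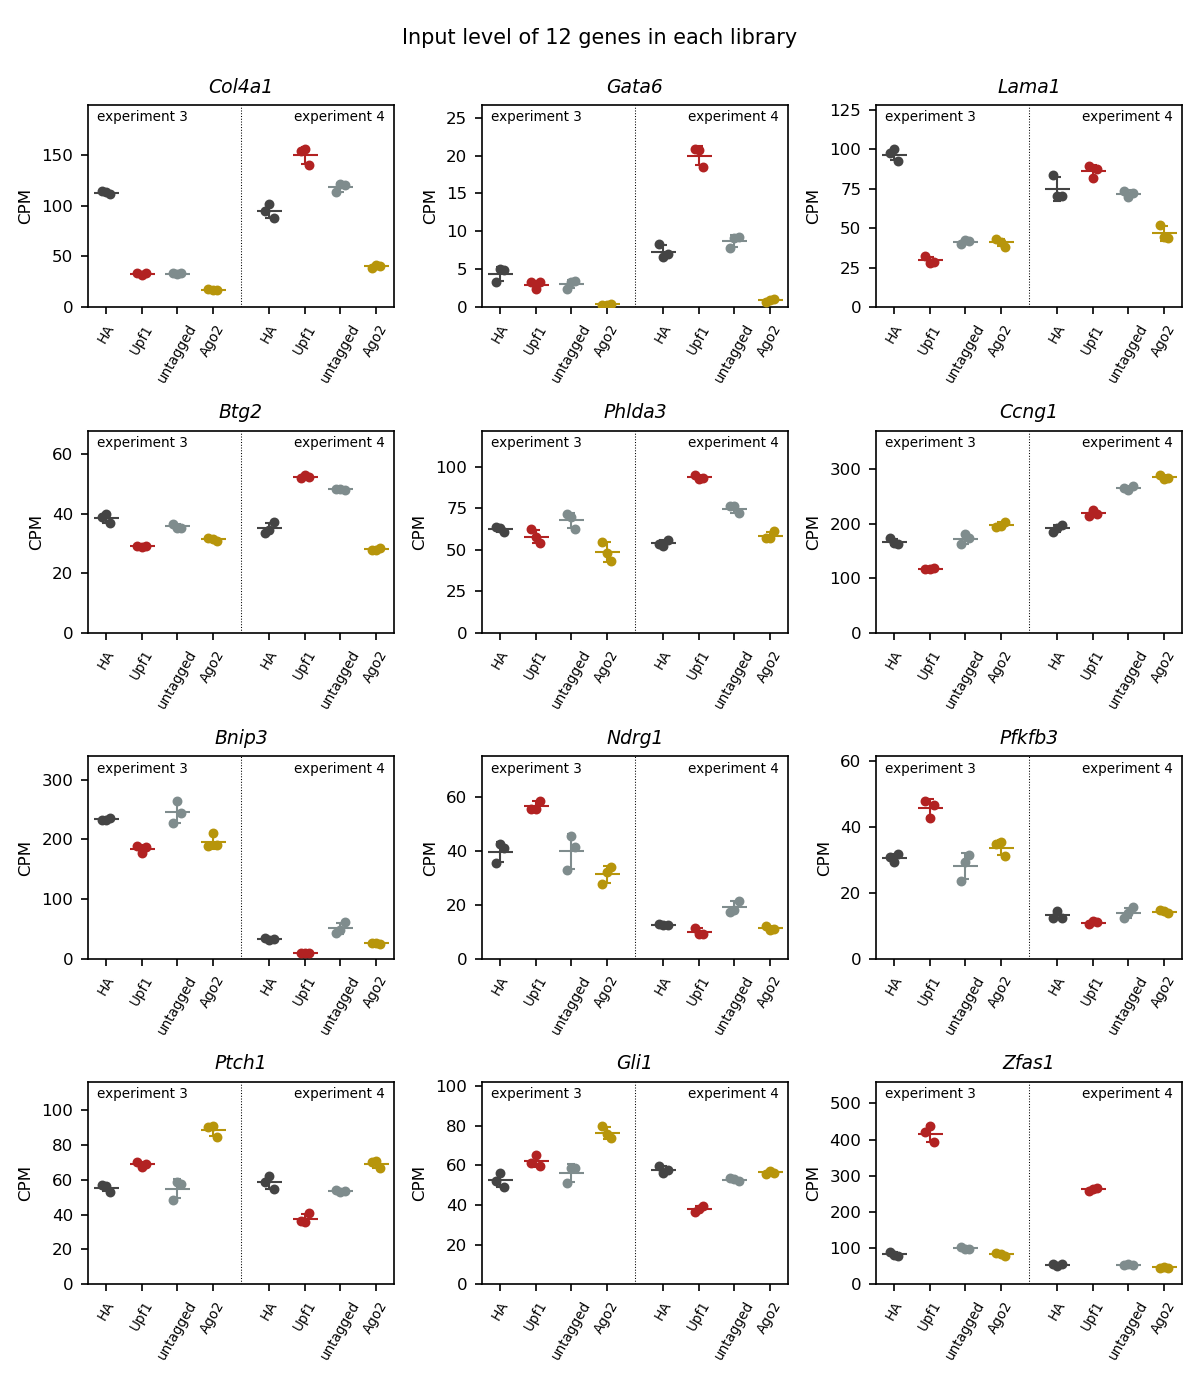
Each dot is the CPM of 1 input library, and each bar the mean of 3 libraries with its SD, for HA-Tnrc6a cells (HA), cells labelled Upf1 knockout (Upf1), untagged cells and cells labelled Ago2 knockout (Ago2) in experiment 3 and experiment 4. Col4a1 in knockout-labelled cells lies at 31.7 to 34.1 CPM in experiment 3 and at 140 to 155 CPM in experiment 4, whereas Zfas1 is above the other genotypes in both.

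Targets of p53 were lower in experiment 3 and higher in experiment 4. p53 is the transcription factor that answers DNA damage and other stress by arresting the cycle or starting cell death. Of 25 targets tested, the response of 15 was higher in experiment 4 and of 1 lower (Tigar), and 2 agreed between experiments. The shares of all genes were 5.75% higher, 5.84% lower and 23.4% agreeing. Tigar, an enzyme that slows glycolysis, lost its call in some leave-one-out fits and kept it in 10 of 12. In experiment 3, 16 were lower and 4 higher, and in experiment 4, 13 were higher and 3 lower. The median response went from -0.19 to 0.12, and the median difference was 0.35.

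Btg2, a brake on proliferation, stood at 38.9, 40 and 36.9 CPM in HA-Tnrc6a inputs and at 29.2, 28.9 and 29.3 CPM in knockout-labelled inputs of experiment 3. In experiment 4 it stood at 33.7, 34.7 and 37.1 CPM and at 52, 53 and 52.3 CPM, so that the order of the groups turned without any overlap. Its difference was 0.98 ± 0.08 (edgeR quasi-likelihood adjusted p = 6.00e-13). Plk2, a kinase induced by p53, went from -0.72 to 0.25 and Ccng1, cyclin G1, from -0.51 to 0.19 (difference 0.97 and 0.70, edgeR quasi-likelihood adjusted p = 1.43e-10 and 1.48e-14). Phlda3, an inhibitor of Akt, did not pass the threshold in experiment 3, at -0.11, and rose by 0.79 in experiment 4. Sesn2, Trp53inp1, Eda2r, Zmat3 and Bbc3, which encodes the death factor Puma, had differences of 0.60, 0.65, 0.71, 0.47 and 0.52. Mdm2, the ligase that degrades p53, had a difference of 0.27, and Pmaip1, which encodes Noxa, 0.35. Cdkn1a, the cell cycle inhibitor p21, had a difference of 0.24 that did not pass (adjusted p = 0.0552, edgeR quasi-likelihood test), and Bax one of 0.08.

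The summed level of the p53 targets was 1860 to 1890 CPM in knockout-labelled inputs of experiment 3, below the 2070 to 2110 CPM of HA-Tnrc6a and the 2160 to 2230 CPM of untagged inputs. In experiment 4 it was 2340 to 2390 CPM, above the 2040 to 2100 CPM of HA-Tnrc6a inputs and below the 2450 to 2470 CPM of untagged inputs. Against untagged cells 7 targets were higher in experiment 4 and none lower, with a median difference of 0.19. Phlda3 and Btg2 were among the 7, at 0.56 and 0.42.

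**Figure D3:**
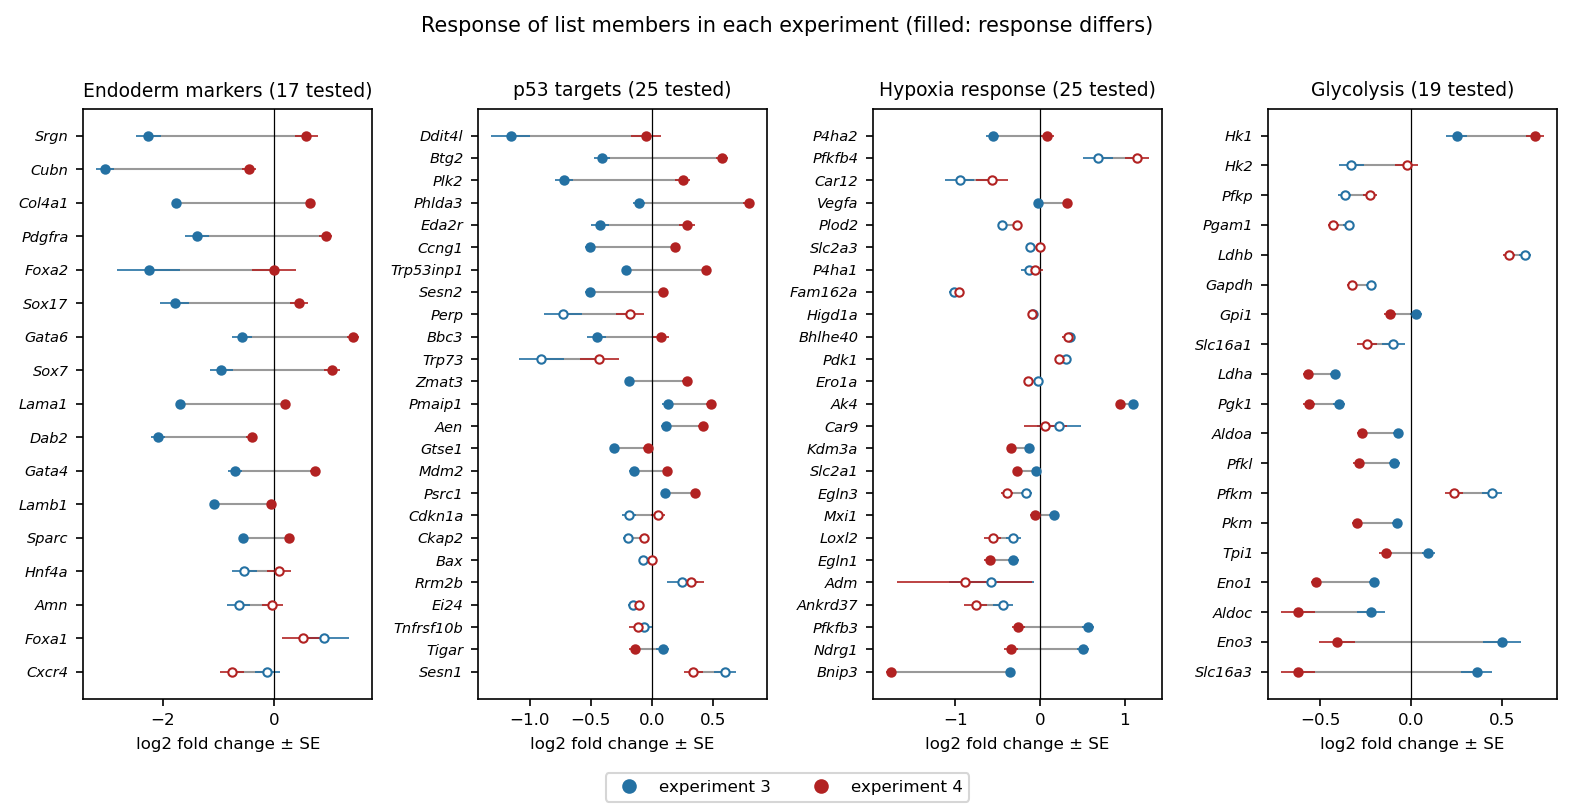
Log2 fold change of knockout-labelled over HA-Tnrc6a inputs with its SE for the tested members of 4 lists, in experiment 3 (blue) and experiment 4 (red), ordered by the difference, with filled circles where the response differs. Endoderm markers and p53 targets lie to the right in experiment 4, with 13 of 17 and 15 of 25 members differing upwards, and glycolysis genes lie to the left, with 11 of 19 differing downwards.

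Genes of glycolysis and of the hypoxia response differed mostly downwards. Under low oxygen the factor HIF binds a short element with the core ACGTG and raises glucose uptake, glycolysis and mitophagy. Of 19 glycolysis genes tested, the response of 11 was lower in experiment 4 and of 1 (Hk1) higher, against 5.84% and 5.75% of all genes. The median response went from -0.09 to -0.29. Of 25 hypoxia response genes tested, 8 were lower and 2 higher (Vegfa and P4ha2), and the median went from -0.12 to -0.25. Without the library that stood apart the hypoxia counts were 6 lower and 4 higher, and the glycolysis counts were 11 and 1 as before. With all 24 inputs in 1 fit the counts were 4 lower and 2 higher for hypoxia and 7 lower and 2 higher for glycolysis. Egln1, the oxygen sensor that marks HIF for destruction, was just past the threshold at -0.28 (edgeR quasi-likelihood adjusted p = 0.0445) and kept its call in 4 of 12 leave-one-out fits.

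The core ACGTG, on either strand, was found within 250 bases before an annotated start in 14 of the 20 tested hypoxia genes that have a promoter in the RefSeq table, 70.0%, and in 8 of the 9 of them whose response differed. Of 19 glycolysis genes 9 hold it, 47.4%, and of the 12 whose response differed 5 do, 41.7%. Over all 27025 genes with a promoter, tested here or not, the share was 18.5%. The list members are all tested genes, so the sets compared are unlike. AGATAA, a site of GATA factors, was found on either strand in 2 of 12 endoderm markers, 16.7%. Of the 8 of them that differed 1 holds it, 12.5%, against 11.4% of all genes with a promoter. The sequences of 3 of these genes, 1 strongly and 2 weakly differing, are given from RefSeq (GRCm38.p6), in the direction of transcription and ending at the base before the start, with the core in capitals. Bnip3 is at chr7:138909507-138909756 on the minus strand, Egln1 at chr8:124949255-124949504 on the minus strand, and Pgk1 at chrX:106186850-106187099 on the plus strand.
Bnip3: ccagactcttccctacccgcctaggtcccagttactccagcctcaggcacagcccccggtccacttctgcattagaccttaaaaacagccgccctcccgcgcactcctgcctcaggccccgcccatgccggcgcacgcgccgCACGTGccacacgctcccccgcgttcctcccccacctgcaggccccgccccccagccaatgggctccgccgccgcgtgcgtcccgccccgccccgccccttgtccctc
Egln1: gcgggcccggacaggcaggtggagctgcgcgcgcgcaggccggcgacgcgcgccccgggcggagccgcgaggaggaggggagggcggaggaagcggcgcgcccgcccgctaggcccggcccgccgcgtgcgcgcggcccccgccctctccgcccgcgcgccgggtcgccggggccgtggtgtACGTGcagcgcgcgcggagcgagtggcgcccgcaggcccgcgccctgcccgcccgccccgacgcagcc
Pgk1: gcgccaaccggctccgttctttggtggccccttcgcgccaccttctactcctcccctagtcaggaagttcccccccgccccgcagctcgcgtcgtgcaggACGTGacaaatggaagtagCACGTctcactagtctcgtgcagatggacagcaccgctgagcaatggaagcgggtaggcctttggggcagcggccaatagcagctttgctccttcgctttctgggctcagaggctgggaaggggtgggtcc
In Bnip3 the capitals are 2 overlapping matches, 1 per strand, and in Pgk1 they are 2 separate matches. A match describes these letters and not the binding of a factor.

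Bnip3, a receptor that marks mitochondria for removal, had the largest difference of the hypoxia genes. In experiment 3 it stood at 233, 232 and 236 CPM in HA-Tnrc6a inputs and at 188, 177 and 187 CPM in knockout-labelled inputs. Both groups were far lower in experiment 4, at 34.6, 30.7 and 32.4 CPM and at 9.56, 9.99 and 9.44 CPM. Knockout-labelled cells were lower in both experiments without overlap, with responses of -0.35 ± 0.04 and -1.76 ± 0.06, and the difference was -1.41 ± 0.07 (edgeR quasi-likelihood adjusted p = 3.97e-21). Untagged inputs also had a lower level in experiment 4, at 227 to 265 CPM in experiment 3 and 43.6 to 60.8 CPM in experiment 4.

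Ndrg1 and Pfkfb3 turned their direction. Ndrg1, a stress-induced cytosolic protein, stood at 35.5, 42.6 and 41.2 CPM in HA-Tnrc6a inputs against 55.5, 55.7 and 58.8 CPM in knockout-labelled inputs of experiment 3, and at 12.8, 12.4 and 12.6 CPM against 11.5, 9.28 and 9.15 CPM in experiment 4. Its responses were 0.51 and -0.34, with a difference of -0.85 ± 0.11 (edgeR quasi-likelihood adjusted p = 1.10e-07). Pfkfb3, which makes the activator of phosphofructokinase, responded by 0.57 and -0.25, and Slc16a3, the exporter of lactate, by 0.36 and -0.62. Slc16a3 overlaps Csnk1d, and its difference of -0.98 ± 0.13 had an adjusted p of 0.000485 in the edgeR quasi-likelihood test. Eno3, a muscle form of enolase that overlaps Pfn1, responded by 0.50 and -0.41, and its difference against untagged cells, -0.24, did not pass.

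The abundant glycolytic enzymes were lower in both experiments and further so in experiment 4. Eno1 stood at 1910, 1950 and 1990 CPM in HA-Tnrc6a inputs and at 1680, 1660 and 1770 CPM in knockout-labelled inputs of experiment 3, and at 1470, 1480 and 1510 CPM and 1040, 1050 and 1030 CPM in experiment 4. Its responses were -0.20 and -0.52, with a difference of -0.32 ± 0.04 (edgeR quasi-likelihood adjusted p = 1.18e-07). Pkm, Aldoa, Pgk1 and Ldha had differences of -0.22, -0.20, -0.16 and -0.15. Gapdh, Pgam1, Pfkm, Pfkp and Ldhb agreed between experiments, at -0.22 and -0.32 for Gapdh and 0.63 and 0.54 for Ldhb. The glycolysis genes summed to between 16700 and 17100 CPM in HA-Tnrc6a inputs of experiment 3 and 11400 and 11800 CPM in those of experiment 4, and the part of this shift in the differences was not tested. Within knockout-labelled inputs the sums were 15100 to 15200 and 9240 to 9330 CPM. With untagged cells as the reference, 9 glycolysis genes and 10 hypoxia genes had a response lower in experiment 4 and none of either list higher.

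Several signalling programmes of stem cells also differed. Of 17 tested genes that report or feed back on FGF and ERK signalling, 6 were higher in experiment 4 and 2 lower. The shares of all genes were 5.75% and 5.84%. Dusp6, the phosphatase that switches ERK off, stood at 39.1, 38.5 and 46.6 CPM against 45.5, 46.0 and 47.9 CPM in experiment 3, where the groups overlapped, and at 90.2, 92.2 and 89.1 CPM against 167, 173 and 167 CPM in experiment 4, where they did not. Its difference was 0.74 ± 0.07 (edgeR quasi-likelihood adjusted p = 2.46e-11). Spry1 and Spry4, inhibitors of receptor signalling, had differences of 0.59 and 0.47, and Fgf4, the ligand, -0.52. Of 10 BMP targets tested, 5 were higher and 2 lower, and none agreed, where 23.4% of all genes did. Id3 and Id4, inhibitors of differentiation factors, went from 0.03 to 0.75 and from -0.09 to 0.94, whereas Id2 fell in both experiments, by 1.18 and by 2.26. Against untagged cells the counts were 3 higher and 2 lower for FGF and ERK and 2 higher and 1 lower for BMP, and Spry1 and Id4, at 0.04 and 0.34, did not pass the threshold.

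Hedgehog pathway genes were listed after their values had been seen, so their count supports no direction. Of 13 tested, 5 were lower in experiment 4 and none higher. Ptch1, the receptor and a direct target of the pathway, stood at 56.9, 56.2 and 53.1 CPM in HA-Tnrc6a inputs and at 70.3, 67.4 and 68.9 CPM in knockout-labelled inputs of experiment 3. The experiment 4 levels were 58.9, 62.1 and 54.5 CPM and 36.6, 35.6 and 40.8 CPM, the reverse order, again without overlap. Its difference was -0.95 ± 0.08, and that of Gli1, the transcription factor, was -0.86 (edgeR quasi-likelihood adjusted p = 2.39e-13 and 2.58e-12). Smo, the signal transducer, agreed at 0.27 and 0.23. Lef1, a partner of beta-catenin, fell by 1.07 in experiment 3 and by 3.81 in experiment 4, where knockout-labelled inputs had 0.075 to 0.292 CPM. Lefty1, an antagonist of Nodal, went from 0.93 to -0.61. Of 16 Wnt feedback genes tested, 1 was higher in experiment 4 and 3 lower. Of 14 genes of Nodal and Lefty signalling, 1 was higher (Smad7, by 0.51) and 3 lower. Of all genes, 5.75% were higher and 5.84% lower.

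By the naming rule, the other genes with the largest positive differences were Calb2, Otx2, Ablim1 and Got1l1. Calb2, a calcium-binding protein, stood at 42.2, 45.7 and 50.1 CPM in HA-Tnrc6a inputs of experiment 3 and at 12.9, 11.6 and 13.4 CPM in those of experiment 4. In knockout-labelled inputs it stood at 5.45 to 6.04 and at 3.55 to 4.86 CPM, lower in both experiments, by -3.03 and -1.63. Otx2, a factor of the formative state that follows naive pluripotency, was at 63.8, 60.4 and 63.3 CPM against 29.4, 27.0 and 31.6 CPM in experiment 3, and at 33.1, 35.2 and 36.5 CPM against 38.4, 38.9 and 38.7 CPM in experiment 4. Its response went from -1.10 to 0.14, with a difference of 1.24 ± 0.08 (edgeR quasi-likelihood adjusted p = 4.79e-16). The list of formative and primed pluripotency genes, which holds Otx2, went mostly the other way. Of its 13 tested members 2 were higher in experiment 4 and 4 lower, against 5.75% and 5.84% of all genes. Their median difference was -0.24. Got1l1, a relative of aspartate aminotransferase, rose in both experiments, by 0.62 and 1.79. Against untagged cells its difference was 0.45 and did not pass the threshold.

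Other genes with large negative differences included some best known from neurons and muscle. Jph4, a junctophilin of neurons, stood at 17.7, 19.4 and 18.8 CPM against 15.1, 16.1 and 15.7 CPM in experiment 3 and at 13.9, 14.3 and 13.1 CPM against 3.30, 4.66 and 3.74 CPM in experiment 4. Its difference was -1.57 ± 0.15 (edgeR quasi-likelihood adjusted p = 2.09e-11). Crmp1, a cytoskeletal protein of growing axons whose gene overlaps Evc, turned from 0.79 to -0.74. Gap43, an axonal growth protein, fell by 0.85 and by 2.02, Actn3, the actinin of fast muscle, by 1.21 and by 2.63, and Cdkn1c, an imprinted inhibitor of the cell cycle, by 0.75 and by 2.01. Camkv and Pianp did not pass the threshold in experiment 3, at 0.16 and 0.05, and fell by 1.18 and by 1.15 in experiment 4. Ccnd1, cyclin D1, turned from 0.33 to -0.78, and Hspa1a, an inducible heat shock chaperone, from 0.44 to -0.73. Against untagged cells the differences of Actn3, Gap43 and Hspa1a were -0.54, -0.25 and -0.25 and did not pass the threshold. Of 10 neural genes tested, 3 were lower in experiment 4 (Tubb3, Sox11 and Stmn2) and none higher, against 5.84% and 5.75% of all genes. Without the library that stood apart the count was 1. The calls of Sox11 and Stmn2 held in 5 and 6 of 12 leave-one-out fits.

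Smaller differences were spread over housekeeping programmes. The shares of all genes were 5.75% higher in experiment 4 and 5.84% lower. Of 18 unfolded protein response genes tested, 6 were higher in experiment 4 and none lower. The differences were 0.36 for Hyou1, 0.27 for Calr and 0.41 for Sel1l. Of 27 lysosome and autophagy genes, 5 were higher and none lower, at 0.55 for the protease Ctsl and 0.31 for Ctsb. Of 20 extracellular matrix genes, 6 were higher and 1 (Col18a1) lower, and the 6 included Col4a1, Col4a2, Lama1, Lamb1 and Sparc, which moved with the endoderm markers above. Without the library that stood apart these counts were 8, 9 and 10 higher, and 10.3% of all genes differed. Against untagged cells no lysosome gene differed. Of 12 SR splicing factors, 5 were lower and 1 (Tra2b) higher, at -0.33 for Srsf1 and -0.24 for Srsf2. Of 30 DNA replication genes, 7 were lower and 1 (Pola1) higher, with Ccne1, cyclin E1, at 0.70 in experiment 3 and 0.09 in experiment 4. With library totals as the scaling 18 replication genes were lower. Against untagged cells 3 of them were lower and 1 higher, with a median difference of -0.03 in place of -0.13. In immunoprecipitates none of them was lower and 1 was higher. Of 13 mitochondrially encoded mRNAs, 7 were higher, with a median response of -0.48 and -0.10, but only 1 passed when all 24 inputs entered 1 fit.

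Regulators of naive pluripotency split evenly, with 6 of 20 higher and 6 lower, against 5.75% and 5.84% of all genes. Tfcp2l1, Klf5, Nr0b1 and Tbx3 were higher in experiment 4, by 0.40, 0.40, 0.43 and 0.29. Gbx2, Prdm14, Fgf4 and Klf2 were lower, by -0.57, -0.52, -0.52 and -0.43. Nanog stood at 695, 705 and 726 CPM against 667, 663 and 685 CPM in experiment 3 and at 790, 793 and 787 CPM against 630, 630 and 643 CPM in experiment 4, with responses of -0.08 and -0.32 (edgeR quasi-likelihood adjusted p of the difference = 8.20e-05). Pou5f1, the core factor Oct4, agreed within the interval at -0.41 and -0.32.

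**Figure D4:**
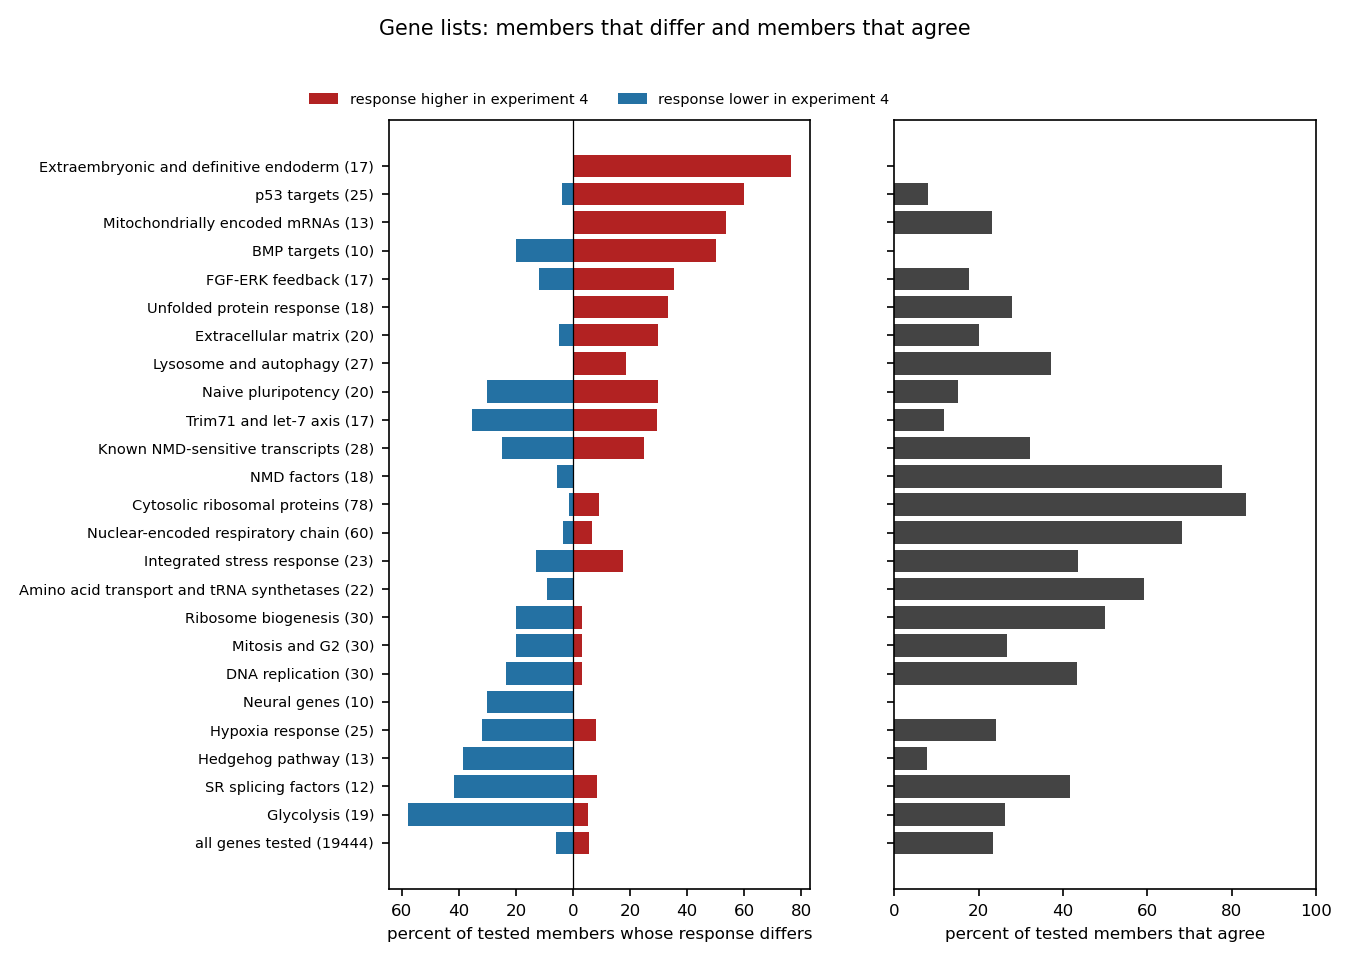
Percent of the tested members of each gene list whose response differs between experiments, with higher responses in experiment 4 to the right and lower ones to the left (left panel), and percent that agree within 1.5-fold (right panel), with the number tested in parentheses. NMD factors and ribosomal proteins agree most, at 14 of 18 and 65 of 78, and endoderm markers, BMP targets and neural genes hold no agreeing member.

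Genes were called agreeing when both experiments changed them in the same direction and the difference did not pass the threshold. The 95% interval of the difference also had to lie within 1.5-fold either way. These conditions held for 4555 genes, 23.4% of those tested, 2490 higher and 2065 lower in knockout-labelled cells. The mean response was at least 2-fold in 114 of them, 96 higher and 18 lower.

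The largest agreeing increases included host transcripts of small nucleolar RNAs, a class known to be cleared by nonsense-mediated decay. Zfas1, the host of small nucleolar RNAs, stood at 88.2, 81.5 and 78.7 CPM in HA-Tnrc6a inputs and at 421, 437 and 392 CPM in knockout-labelled inputs of experiment 3. Experiment 4 gave 55.1, 50.5 and 54.7 CPM and 259, 262 and 265 CPM. The responses were 2.33 ± 0.04 and 2.29 ± 0.04, and the difference was -0.04 with a 95% interval of -0.16 to 0.08. Snhg5, another host transcript, rose from 80.4 to 87.3 CPM to 317 to 325 CPM in experiment 3 and from 88.3 to 93.1 CPM to 316 to 336 CPM in experiment 4, by 1.92 and 1.85. Snhg1, Snhg15 and Epb41l4aos agreed as well, at 1.22 and 1.15, 1.14 and 1.2, and 1.23 and 1.07. Zfas1 overlaps Znfx1 and Snord12, and its reads cannot be told from theirs where strand was not used.

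Of the 28 transcripts listed as known decay targets, 19 were higher in experiment 3 and 18 in experiment 4 (23.5% and 25.8% of all genes), and 20 changed in the same direction in both. The size still differed in 14, 7 higher and 7 lower in experiment 4, and 9 agreed. Of all genes 11.6% differed and 23.4% agreed. Atf4, the effector of the integrated stress response, stood at 219, 213 and 211 CPM against 610, 620 and 598 CPM in experiment 3 and at 249, 248 and 256 CPM against 563, 564 and 551 CPM in experiment 4. It was raised in both without overlap, by 1.5 and 1.15, and the difference of -0.35 ± 0.04 passed the threshold (edgeR quasi-likelihood adjusted p = 7.37e-08). Ddit3, the death factor Chop, rose by 1.25 and by 1.87, and Snhg12 by 1.21 and by 1.63. Ddit3 overlaps Mars1 and Mbd6. Against untagged cells 8 of the 28 were higher in experiment 4 and 1 lower.

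The mRNAs of the decay machinery responded by similar amounts with HA-Tnrc6a cells as the reference. Of 18 factors tested, 14 agreed and 1 differed (Pnrc2, at 0.30 and 0.02; 2 differed without the library that stood apart), and the median response was 0.22 and 0.23. Upf2, the partner of Upf1, rose by 0.61 and 0.75, the kinase Smg1 by 0.71 and 0.88, Smg5, an adaptor that recruits decay enzymes, by 0.79 and 0.71, and Smg9, a regulator of that kinase, by 1.32 and 1.16. Eif4a3, Rbm8a and Magoh, the core of the exon junction complex, fell by 0.38 and 0.42, by 0.28 and 0.17, and by 0.40 and 0.37. The change of reference to untagged cells left 3 of the 18 factors differing, each with a positive difference, against 6.01% of all genes. The median difference of the 18 was then 0.06 in place of 0.05.

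Of 23 integrated stress response genes 10 agreed, 4 were higher and 3 lower in experiment 4, against 23.4%, 5.75% and 5.84% of all genes. Against untagged cells 8 were higher and 1 lower. Nupr1, a stress-induced nuclear protein, rose from 26.1 to 29.9 CPM to 87.8 to 96.1 CPM in experiment 3 and from 27.6 to 28.6 CPM to 83.6 to 92.6 CPM in experiment 4, by 1.69 and 1.66. With untagged cells as the reference its difference was 0.76 and passed the threshold, where it is -0.04 here. Ppp1r15a, which restores translation after stress, rose by 1.02 and 0.97, and Pck2, a mitochondrial metabolic enzyme, by 1.01 and 1.05. Asns, which makes asparagine, turned from -0.25 to 0.22, and Ddit4, an inhibitor of mTOR, rose by 0.26 and by 1.02.

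Ribosomal protein mRNAs fell by a similar amount in both experiments. Of 78 tested, 74 were lower in experiment 3 and 72 in experiment 4 (22.3% and 24% of all genes), and 65 agreed, with a median response of -0.31 and -0.26. The 8 that differed did so by 0.21 or less, with Rps2 at -0.30 and -0.09. The median difference was 0.05, and 0.14 against untagged cells, where 6 were higher in experiment 4 and none lower. With the replicate block 15 were higher and 2 lower. Of 60 nuclear-encoded genes of the respiratory chain, 47 were lower in each experiment and 41 agreed, with a median of -0.24 and -0.23. Their median difference was 0.02, and 0.14 against untagged cells, where 3 were higher and none lower. Among 22 amino acid transporters and transfer RNA synthetases 13 agreed, against 23.4% of all genes, and 2 differed. Against untagged cells 10 of the 22 were higher in experiment 4 and none lower, and the median difference was 0.23 in place of -0.01.

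Other agreeing genes with the largest increases were Rassf1, a tumour suppressor of the Ras pathway, at 1.64 and 1.87, Rapgef3, a cyclic AMP sensor, at 1.64 and 1.81, Arf2, Pea15a and Mep1b. Rapgef3 agreed although its level in HA-Tnrc6a inputs was 8.43 to 9.63 CPM in experiment 3 and 31.8 to 33.9 CPM in experiment 4. Among agreeing decreases, Crabp1, a carrier of retinoic acid, stood at 50.3, 52.1 and 47.8 CPM against 16.8, 15.3 and 13.7 CPM in experiment 3 and at 23.2, 24.1 and 24.1 CPM against 8.97, 7.79 and 7.96 CPM in experiment 4. It fell by 1.71 and by 1.54. Ada, which deaminates adenosine, fell by 1.30 and by 1.33, and Ephx2, an epoxide hydrolase, by 1.08 and by 1.06. Rbm44, Stk26, Obi1, Kcnj3 and Tdrkh, a piRNA pathway protein, fell by 1.00 to 1.33 in each experiment.

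The groups moved unequally between the experiments. Over the genes whose response was higher in experiment 4, the median of experiment 4 minus experiment 3 was 0.39 on the log2 scale in knockout-labelled inputs and -0.05 in HA-Tnrc6a inputs, and it was 0.18 in untagged and 0.08 in Ago2-/- inputs. Over the genes whose response was lower, it was -0.26 in knockout-labelled inputs, 0.12 in HA-Tnrc6a inputs, -0.02 in untagged and 0.0 in Ago2-/- inputs. The first 2 values of each set follow in part from how the genes were selected and carry no test. Experiment cannot be told apart from depth or from anything else that changed with it.

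Immunoprecipitates made with HA beads from cells of the same groups gave the same contrast from other libraries, which may share lysates with the inputs. Of 18408 genes tested there, 552 differed, 3.0%. Of the 1109 genes whose input response was higher in experiment 4, 190 passed in the immunoprecipitates, all 190 with the same sign, and of 1132 with a lower response 184 passed, 182 with the same sign. Of all 552 genes that passed there, 523 had the same sign as in the inputs, and of all genes, passed or not, 65.6% did. Of the endoderm markers 9 passed there and all were higher, with Gata6 at 2.02 ± 0.19 (edgeR quasi-likelihood adjusted p = 1.25e-06), and of the p53 targets 8 passed and all were higher, with Phlda3 at 1.18. Of the glycolysis and hypoxia genes 2 of each list passed there, all lower, and of the extracellular matrix genes 1. None of the unfolded protein response, lysosome, SR factor or mitochondrially encoded genes passed. Bnip3 was at -1.48 and Ptch1 at -1.07, and Hspa1a, at -0.45, did not pass. Col4a1, at 2.03 ± 0.46, did not pass there (edgeR quasi-likelihood adjusted p = 0.0557). Upf1 itself passed in the immunoprecipitates, at -0.77 ± 0.12 (edgeR quasi-likelihood adjusted p = 0.000388).

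Differing genes were spread over the chromosomes. On the autosomes and X, 11.6% to 16.5% of the genes with a RefSeq position differed, lowest on chromosome 13 and highest on chromosome 1. Of 9 genes on Y, 5 were higher and 1 lower. Differing genes had a median log2 CPM of 5.00 where the response was higher and 5.63 where it was lower, against 3.70 over all genes. The part of expression level in the calls was not tested.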

How the data were processed

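RNA from mouse embryonic stem cell lysates and HA immunoprecipitates was sequenced from stranded total RNA libraries, per the labels' protocols. The authors deposited whole-number read counts per gene. STAR 2.7.3a, bcl2fastq 2.20 and the builds GRCm38 and mm10 are named in the submitters' processing notes, and the counting tool and its strand setting were not given in the sources used here. A further 48 deposited columns of per-sample values were not used. Columns were assigned to samples by name, with numbers 1 to 3 taken as experiment 3 and 4 to 6 as experiment 4, which is an inference. Of 20171 gene IDs, 16427 were named from the gene table and 3725 from a reference table of gene names.

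Counts were filtered (filterByExpr, minimum count 10), scaled by trimmed means and fitted with edgeR 4.0.16 (quasi-likelihood, R 4.3.3), 1 model over 12 inputs in 4 groups without a replicate block. Each response and their difference were contrasts of that fit, with Benjamini-Hochberg adjustment over all 19444 genes and a threshold of 0.05. A response agreed where both contrasts passed in the same direction, the difference did not pass, and its 95% interval lay within 1.5-fold. The procedure was tested on simulated data. DESeq2 1.42.0 and the other alternatives are given in the closing section.

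The comparison and the 46 gene lists were chosen with earlier results of these data known, and the Hedgehog list after the values were seen. Named were Upf1, Tnrc6a and Ago2; per direction the 10 largest differences and the 8 largest agreeing responses at a mean log2 CPM of at least 3 that held in every fit leaving out 1 library; per pattern the 5 largest opposite responses; and up to 4 differing members of a list with its defining genes. Further list members were named after their values were seen. Replicate numbers were not used to pair the dishes. P-values measure the spread between dishes, and reads carried no molecular identifiers, so counts are not independent molecules.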

Additional observations from a re-analysis of the deposited data

Results flagged for a closer look

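The response to the genotype labelled Upf1 knockout differed between experiments in 2253 genes by the edgeR quasi-likelihood test of the difference itself, which is why they are listed here. The 10 named here were changed in opposite directions by the experiments. The endoderm genes Col4a2, Col4a1, Gata6 and Gata4 went from lower to higher, with differences of 2.65, 2.42, 2.01 and 1.44 on the log2 scale. Btg2, a p53 target, did the same, with a difference of 0.98. Crmp1, Hspa1a, Slc16a3, Eno3 and Tnfsf12, a cytokine of the tumour necrosis factor family, went from higher to lower, with differences of -1.53, -1.17, -0.98, -0.91 and -0.88. Against untagged cells in place of HA-Tnrc6a cells the differences of Gata4 (0.62), Hspa1a (-0.25), Eno3 (-0.24) and Tnfsf12 (-0.43) did not pass the threshold. In immunoprecipitates those of Col4a1 (2.03) and Hspa1a (-0.45) did not pass.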

How the results depend on the processing

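A minimum fold of 1.5 (edgeR's glmTreat) left 101 genes that differed, 825 changed in experiment 3, 1025 in experiment 4, 435 in the same direction and 1 in opposite directions. With untagged cells as the reference 1159 genes differed and 108 changed in opposite directions. The other alternatives gave between 1578 (all 24 inputs in 1 fit) and 2578 differing genes (the replicate block), with 2065 by DESeq2 and 2060 with experiment 4 thinned to the depth of experiment 3. Leaving out 1 library at a time gave 1856 to 2174 differing genes, 7951 to 8949 changed in experiment 3, 8781 to 9828 in experiment 4, 5912 to 6139 in the same direction and 165 to 210 in opposite directions. The replicate block kept the direction and call of all 205 named genes. Same-numbered dishes had correlations of -0.012 to 0.037 in their deviations, and dishes of unlike number -0.04 to 0.027. With 3 dishes per group these values cannot settle whether the numbers pair dishes.

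With untagged cells as the reference 75 of the 205 named genes kept their direction but lost the call (among them Gata4, Got1l1, Actn3, Gap43 and Hspa1a), 110 kept their direction and their side of the threshold, 1 gained a call, 2 were not tested, and the sign of the difference turned in 17. The turned difference passed the threshold for Dab2 (-0.74), Zfas1 (0.22) and Nupr1 (0.76, and 0.31 against the mean of 3 genotypes), and did not for Ddit4 (-0.049), Me1 (-0.19), Mt2 (-0.10), Gdf3 (0.23), Epcam (0.21), ND4 (-0.08), ND5 (-0.035), COX1 (-0.058), Slc7a3 (0.13), Stmn2 (0.007), Srgn (-0.29), Cubn (-0.50), Pdgfrb (-0.10) and Sparc (-0.02). The cause was not tested. Each group is 3 dishes of an unstated number of clones, and experiment cannot be told apart from depth, which was higher in experiment 4.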

Other observations

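Gene groups outside the comparisons above also held large differences. Of 16 interferon response genes tested, 3 were higher in experiment 4 and 5 lower, against 5.75% and 5.84% of all genes. Against untagged cells 1 of the 16 was higher and 1 lower, and in immunoprecipitates none was higher and 2 were lower. Ifitm1, Ifitm3 and Ifitm2, membrane proteins that block virus entry, were lower by -0.76, -0.61 and -0.29. Tap1 and B2m, of antigen presentation, were higher by 0.91 and 0.52, the call of B2m holding in 8 of 12 leave-one-out fits. Of 24 imprinted genes, H19 and Grb10 were higher, by 1.10 and 0.38, and Mest, Cdkn1c, Phlda2 and Peg10 were lower, by -0.96, -1.25, -0.56 and -0.51. Of 19 germline genes silenced by DNA methylation, 4 were higher and 2 lower, with Dazl higher by 1.05.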
